A study of Homo sapiens with 12 samples.

Results

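Transcripts of 10 genes known as WNT targets or intestinal stem cell genes (AXIN2, LGR5, ASCL2, RNF43, ZNRF3, NKD1, SP5, TCF7, LEF1 and NOTUM) were followed in HCT116 and DLD1, a pair of human colorectal cancer cell lines. The genes were taken as a fixed list of names, with the highest-mean transcript cluster of each gene as its measure. A transcript cluster is the set of probes that an Affymetrix gene array assigns to one locus. Of the 10 genes 9 were measured, among 18377 genes in all, and each of the 9 had a single cluster. The platform annotation used here names TCF7 for no cluster, neither alone nor among several symbols, and TCF7 is not analysed here.

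In each line gene targeting had removed 1 allele of a PI3K catalytic subunit. PI3K makes a membrane lipid that activates AKT downstream of growth factor receptors. The labels give the mutant allele as H1047R in HCT116 and as E545K in DLD1, so the mutation is not the same in the lines. Wild-type-only cells had lost the mutant allele and mutant-only cells had lost the wild-type allele. All 4 groups therefore carry a targeted deletion, and all were kept in McCoy's medium with 0.5% serum for 19 h before harvest. Each group has 3 arrays labelled biological replicates, made from 500 ng of RNA each. The labels describe 1 knocked-out line per allele and parental line and state no number of clones, so the p-values measure the spread between cultures of such a line. No parental cells were analysed here.

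In WNT signalling, a secreted WNT protein binds Frizzled and LRP receptors and stops a complex of APC, AXIN and GSK3 from marking beta-catenin for destruction. Beta-catenin then joins DNA-binding proteins of the TCF and LEF family and switches target genes on. Many of the targets act back on the pathway as brakes, and in the gut the pathway maintains the stem cells at the crypt base. HCT116 carries a mutant CTNNB1, the gene of beta-catenin, and DLD1 a mutant APC, so in both lines the pathway is known to be active without a ligand.

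The deposited values are log2 signals. The array medians lay between 7.42 and 7.53, and Pearson correlations across clusters were 0.9952 to 0.9983 within a group and 0.9519 to 0.9633 between lines. The mean signal of 10 colorectal epithelial markers was 9.70 to 9.81 on the HCT116 arrays and 10.70 to 10.85 on the DLD1 arrays. The mean of this list is therefore higher in DLD1 together with most of the genes described here, and its part in their differences was not tested. Of the 10 markers, 7 were called lower in HCT116 and none higher in wild-type-only cells, and 8 lower and 1 higher in mutant-only cells. CDH17 had the widest gap, with log2 differences, HCT116 minus DLD1, of -4.92 and -5.52. Its HCT116 means were 5.59 in both genotypes, at the low end of the scale. The mean of 7 enterocyte and goblet cell markers lay between 7.17 and 7.31 in HCT116. In DLD1 it was 7.81 to 7.91 on the wild-type-only arrays and 7.34 to 7.39 on the mutant-only arrays. That shift in DLD1 goes with KRT20, whose log2 change was -4.14, while CA2 changed by 0.86 the other way. The other 5 were not called, and the list's median change was -0.03. The part of these markers in the genotype values was not tested either. Of 4 immune genes the mean was 6.73 to 6.82 in HCT116 and 6.55 to 6.63 in DLD1, with no overlap. These genes did not move as 1 set. In both genotypes CD68 and CD3E were called higher in HCT116, CD14 was called lower and PTPRC was not called. The means of 6 fibroblast genes (6.63 to 6.81) and 4 endothelial genes (6.15 to 6.36) overlapped between the lines. Signals of different clusters depend on their probes and are not compared with each other as amounts of RNA.

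Log2 differences of the members reached 5.65 in size between the lines and 0.24 between the genotypes of a line. LGR5, LEF1, AXIN2 and ASCL2 were the members with the largest differences, and each was lower in HCT116, by 48.6-fold, 22.1-fold, 7.94-fold and 3.18-fold between the wild-type-only groups. RNF43, ZNRF3 and NKD1 were also lower in HCT116, by 1.25-fold to 1.82-fold. NOTUM was the only measured member that was higher in HCT116, by 1.73-fold, and SP5 did not pass the test. No member passed the test between the genotypes of either line in the fit of group means, and 3 members were called in fits that pair the arrays by their replicate number.

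**Figure D1:**
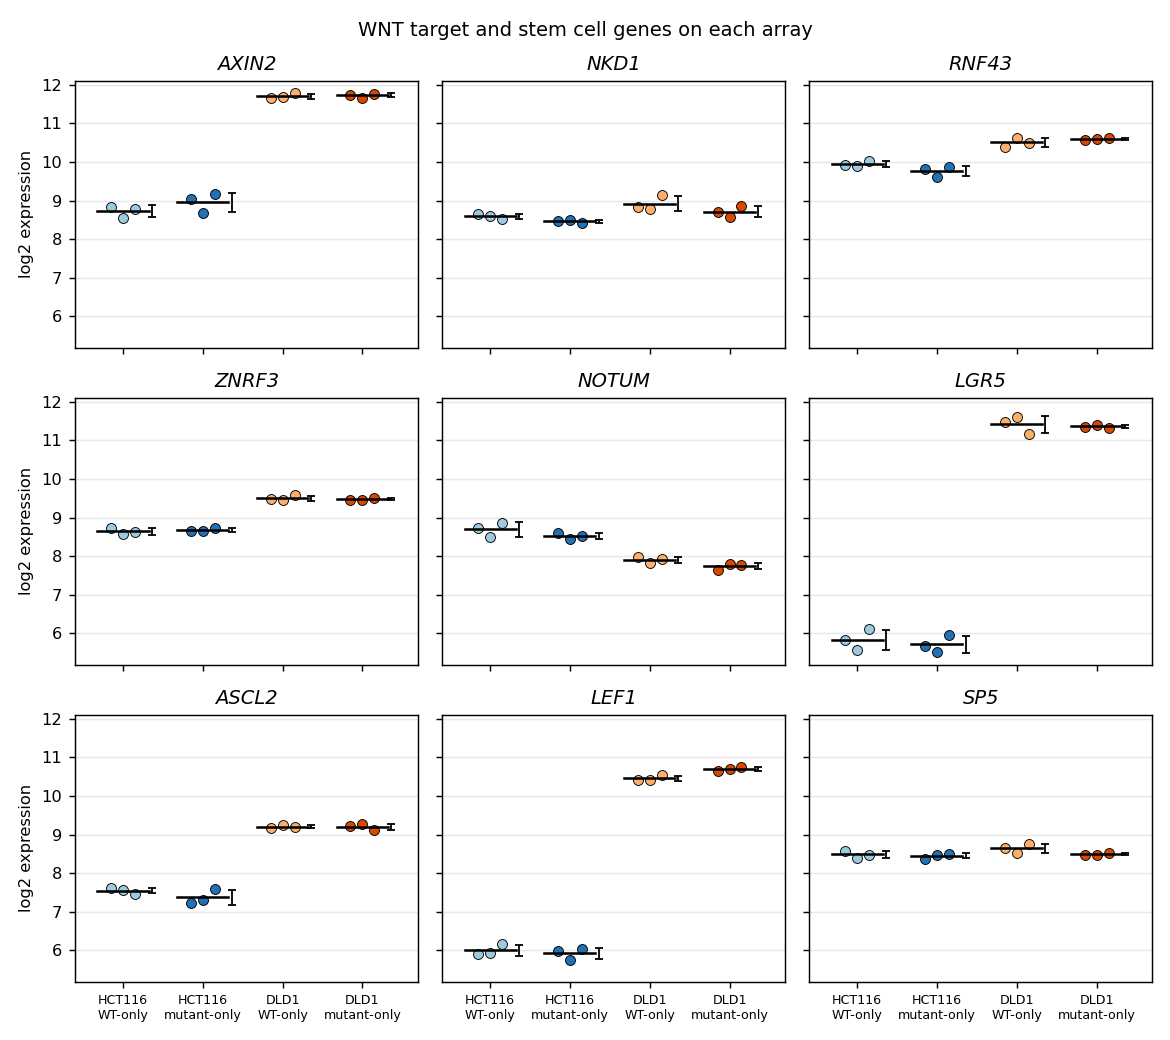
Log2 signal of the 9 measured genes on each of the 12 arrays. Each point is an array, each short line a group mean of 3 arrays with its SD as the bar beside it, and colours mark the groups. LGR5 lies between 5.51 and 6.10 on the HCT116 arrays and between 11.18 and 11.61 on the DLD1 arrays, and NOTUM is the one gene drawn higher in HCT116.

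Promoter sequence was available for part of the list. RefSeq windows of 300 bases, from 250 bases before to 50 bases after an annotated transcription start, matched 4 of the 10 genes (RNF43, SP5, TCF7 and LEF1) with 6 windows. They were searched for the 7-letter word CTTTGAA, the word CTTTGAT, the word CTTTGTA and the word CTTTGTT, the core letters that TCF and LEF proteins are known to bind, on both strands. At least 1 match was present in 2 of the 6 windows, against 13.8% of all 35116 windows of this length. The windows of SP5, with the most matches, and of LEF1, with none, are printed as examples, chosen with their differences between lines known. Whether matches go with the differences between lines was not tested, and LGR5, AXIN2 and ASCL2 have no window. Letters are on the gene's strand, 5′ to 3′, from build GRCh38.p14, with the searched words in capitals. The SP5 window lies at chr2:170715087-170715386 on the plus strand and the LEF1 window at chr4:108166252-108166551 on the minus strand.
SP5: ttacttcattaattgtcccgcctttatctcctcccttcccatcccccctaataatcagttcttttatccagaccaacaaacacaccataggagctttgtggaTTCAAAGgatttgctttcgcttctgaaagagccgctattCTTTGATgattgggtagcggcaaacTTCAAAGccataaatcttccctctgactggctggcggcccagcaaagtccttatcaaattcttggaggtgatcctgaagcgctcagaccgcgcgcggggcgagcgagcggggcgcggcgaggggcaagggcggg
LEF1: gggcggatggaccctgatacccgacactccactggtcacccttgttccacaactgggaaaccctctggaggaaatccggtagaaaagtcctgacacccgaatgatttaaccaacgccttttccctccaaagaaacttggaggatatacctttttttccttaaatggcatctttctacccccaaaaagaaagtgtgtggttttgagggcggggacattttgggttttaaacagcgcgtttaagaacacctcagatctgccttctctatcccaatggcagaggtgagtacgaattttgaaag
The SP5 window holds 3 matches, which begin 148, 109 and 84 bases before the start, the first and last of them on the opposite strand. Of all windows 0.179% hold 3 or more. The LEF1 window and both RNF43 windows hold none of these words, and 1 of the TCF7 windows holds a match 50 bases before its start. Only starts with a window were searched, so an absence does not extend to other starts of these genes. A match describes letters only, and binding was not measured.

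The receptor LGR5 binds R-spondins, which strengthen WNT signalling, and marks intestinal stem cells. Its log2 signal on the wild-type-only arrays of HCT116 was 5.81, 5.56 and 6.10, and on the mutant-only arrays 5.68, 5.51 and 5.94. In DLD1 it was 11.49, 11.61 and 11.18 with the wild-type allele and 11.36, 11.40 and 11.33 with the mutant allele. All 6 DLD1 arrays were therefore high and all 6 HCT116 arrays low, with no overlap, while the genotypes overlapped within each line. The difference, HCT116 minus DLD1, was -5.60 between the wild-type-only groups (SE 0.137, limma adjusted p = 6.38e-13) and -5.65 between the mutant-only groups (adjusted p = 6.15e-13). By size it ranked 10 and 9 among the 18377 genes. The HCT116 group means stood at percentiles 11.7 and 10.2 of all genes' means and the DLD1 means at 96.0 and 95.4. Detection above background was not assessed, so the 48.6-fold and 50.3-fold ratios rest on HCT116 signals at the low end of the scale.

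ASCL2 is a transcription factor that works with WNT signalling to keep intestinal cells in the stem cell state. Its signal was 7.60, 7.55 and 7.47 in wild-type-only and 7.21, 7.31 and 7.59 in mutant-only HCT116 cells. The DLD1 signals were 9.17, 9.26 and 9.19 with the wild-type allele and 9.21, 9.27 and 9.13 with the mutant allele. ASCL2 was thus higher on every DLD1 array than on any HCT116 array. The lines differed by -1.67 in wild-type-only cells (SE 0.0824, limma adjusted p = 8.43e-10) and by -1.83 in mutant-only cells (adjusted p = 3.14e-10), 3.18-fold and 3.57-fold. In DLD1 the genotypes differed by -0.0018, with a 95% interval from -0.180 to 0.176.

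LEF1 and SP5 are transcription factors of the pathway's nuclear end: LEF1 is a partner of beta-catenin on DNA, and SP5 is an SP-family factor, known as a repressor, that WNT signalling induces. LEF1 gave 5.90, 5.93 and 6.15 in wild-type-only and 5.98, 5.75 and 6.02 in mutant-only HCT116 cells. In DLD1 it gave 10.41, 10.43 and 10.54 in wild-type-only and 10.66, 10.69 and 10.76 in mutant-only cells. Besides the wide gap between lines, all 3 mutant-only DLD1 arrays were higher than all 3 wild-type-only arrays, whereas the HCT116 genotypes overlapped. The lines differed by -4.46 (SE 0.081, limma adjusted p = 3.31e-14) in wild-type-only and -4.79 in mutant-only cells (adjusted p = 1.47e-14), ranks 32 and 26 of all genes. As for LGR5, the HCT116 means were low, at percentiles 14.1 and 13.3 of all genes.

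SP5 was the measured member whose lines were not called different. Its signal was 8.58, 8.40 and 8.47 in wild-type-only and 8.38, 8.47 and 8.50 in mutant-only HCT116 cells, against 8.64, 8.53 and 8.75 in wild-type-only and 8.48, 8.47 and 8.51 in mutant-only DLD1 cells. The lines overlapped for both genotypes. The difference was -0.16 in wild-type-only cells (SE 0.0649, limma adjusted p = 0.0626) and -0.04 in mutant-only cells (adjusted p = 0.653). The first of these passed the test under 7 of 21 other settings, as given in the closing section.

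AXIN2 and NKD1 are inhibitors inside the cell. AXIN2, a scaffold of the destruction complex that is widely used as a readout of the pathway, gave 8.83, 8.54 and 8.79 in wild-type-only and 9.03, 8.69 and 9.16 in mutant-only HCT116 cells. In DLD1 it gave 11.67, 11.68 and 11.78 with the wild-type allele and 11.75, 11.67 and 11.78 with the mutant allele. All DLD1 arrays were higher than all HCT116 arrays, and within DLD1 the 6 arrays lay close together. The lines differed by -2.99 in wild-type-only cells (SE 0.105, limma adjusted p = 2.39e-11) and by -2.77 in mutant-only cells (adjusted p = 4.97e-11), 7.94-fold and 6.83-fold.

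NKD1, which binds Dishevelled and dampens WNT signalling, showed a much smaller gap. Its signal was 8.65, 8.60 and 8.52 in wild-type-only and 8.47, 8.50 and 8.41 in mutant-only HCT116 cells. The DLD1 signals were 8.82, 8.78 and 9.13 in wild-type-only and 8.69, 8.58 and 8.86 in mutant-only cells. Within each genotype the DLD1 arrays were all above the HCT116 arrays, but mutant-only DLD1 cells overlapped wild-type-only HCT116 cells. The difference between lines was -0.32 (SE 0.0906, limma adjusted p = 0.00963) in wild-type-only and -0.25 (adjusted p = 0.0318) in mutant-only cells. The second call was lost without mutant-only replicate 1 or 3 of either line, with adjusted p from 0.061 to 0.148.

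RNF43 and ZNRF3 are related membrane E3 ubiquitin ligases that remove Frizzled receptors from the cell surface. RNF43 gave 9.93, 9.89 and 10.03 in wild-type-only and 9.83, 9.61 and 9.87 in mutant-only HCT116 cells. In DLD1 it gave 10.40, 10.63 and 10.50 in wild-type-only and 10.57, 10.60 and 10.62 in mutant-only cells. HCT116 was lower throughout, and its mutant-only arrays lay below its wild-type-only arrays without overlap. The lines differed by -0.56 in wild-type-only cells (SE 0.074, limma adjusted p = 1.92e-05) and by -0.83 in mutant-only cells (adjusted p = 4.03e-07).

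ZNRF3 gave 8.74, 8.56 and 8.63 in wild-type-only and 8.66, 8.64 and 8.73 in mutant-only HCT116 cells. In DLD1 it gave 9.49, 9.45 and 9.57 with the wild-type allele and 9.47, 9.46 and 9.50 with the mutant allele. The lines did not overlap and the genotypes did. HCT116 was 1.82-fold lower in wild-type-only cells (log2 -0.86, SE 0.0564, limma adjusted p = 1.6e-08) and 1.74-fold lower in mutant-only cells (log2 -0.80, adjusted p = 3.55e-08).

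NOTUM, a secreted enzyme that takes the lipid off WNT proteins and so inactivates them, ran the other way. Its signal was 8.73, 8.49 and 8.86 in wild-type-only and 8.59, 8.44 and 8.52 in mutant-only HCT116 cells. In DLD1 it was 7.96, 7.81 and 7.93 in wild-type-only and 7.65, 7.81 and 7.76 in mutant-only cells. Every HCT116 array was above every DLD1 array. NOTUM was 1.73-fold higher in HCT116 in wild-type-only cells (log2 0.79, SE 0.0848, limma adjusted p = 2.5e-06) and 1.71-fold higher in mutant-only cells (log2 0.78, adjusted p = 2.94e-06).

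Counted together, 8 of the 9 measured genes differed between the lines in wild-type-only cells and 8 in mutant-only cells, in each case 7 lower and 1 higher in HCT116. Between these lines 48.8% of all genes were called in wild-type-only cells and 50.6% in mutant-only cells, so a call alone is common here. Groups that did not overlap were as frequent, at 54.8% and 57.8% of all genes, against 8 of 9 members in each genotype. The members' median log2 difference was -0.86 in wild-type-only and -0.83 in mutant-only cells, beside medians of all genes of 0.0039 and 0.0082. The median size without sign was 0.169 and 0.180 over all genes, and the 90th percentile of size was 0.866 and 0.888. LGR5, LEF1, AXIN2 and ASCL2 exceeded that percentile in both genotypes. Each line counts once in these comparisons, so the CTNNB1 and APC mutations cannot be told apart from everything else in which HCT116 and DLD1 differ.

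**Figure D2:**
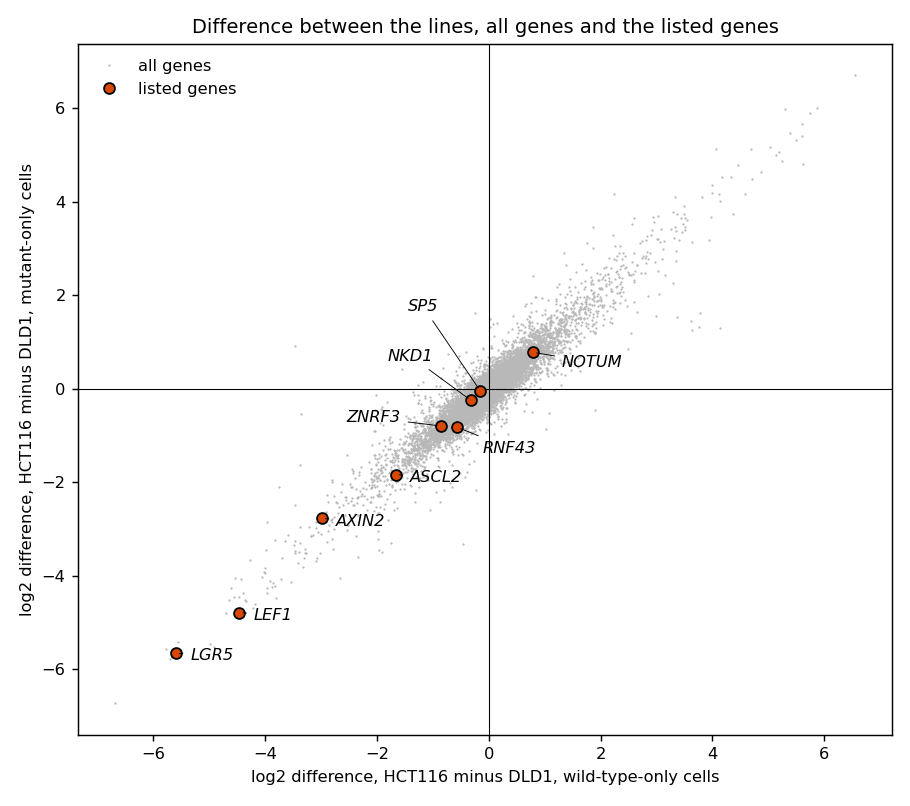
Log2 difference between lines, HCT116 minus DLD1, in wild-type-only cells (horizontal) and mutant-only cells (vertical), with all 18377 genes in grey and the 9 measured members named. LGR5 lies at -5.60 and -5.65, LEF1 at -4.46 and -4.79, AXIN2 at -2.99 and -2.77, and NOTUM at 0.79 and 0.78. The axes share no arrays, and both hold the same difference between lines.

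The second question was whether the members moved with the PI3K allele that the cells retained. In HCT116 AXIN2 had the largest change, mutant-only minus wild-type-only, at 0.24 (SE 0.105, limma adjusted p = 0.237). RNF43 changed by -0.18 (adjusted p = 0.209), NOTUM by -0.18 (adjusted p = 0.283), ASCL2 by -0.17 (adjusted p = 0.296) and NKD1 by -0.14 (adjusted p = 0.478). LGR5, LEF1, SP5 and ZNRF3 had values of -0.11, -0.08, -0.04 and 0.04, with adjusted p from 0.704 to 0.839. None of the 9 passed the test, beside 6.16% of all genes. An unadjusted p under 0.05 was reached by AXIN2 and RNF43, 2 of 9 beside 18.5% of all genes. The genotypes did not overlap for RNF43 and NKD1, both lower in mutant-only cells, again 2 of 9 beside 22% of all genes. The 95% intervals of the members reached at most 0.465 from 0, a 1.38-fold change.

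In DLD1 LEF1 had the largest value, at 0.24 (SE 0.081, limma adjusted p = 0.0846), with a 95% interval from 0.069 to 0.419. NKD1 changed by -0.20 (adjusted p = 0.208), NOTUM by -0.16 (adjusted p = 0.285), SP5 by -0.15 (adjusted p = 0.183) and RNF43 by 0.09 (adjusted p = 0.551). LGR5, ZNRF3, ASCL2 and AXIN2 lay between -0.06 and 0.02, with adjusted p from 0.816 to 0.993. Again none of the 9 was called, beside 8.77% of all genes. At an unadjusted p under 0.05 there were 3 of 9, LEF1, SP5 and NKD1, beside 22.3% of all genes. LEF1, higher in mutant-only cells, and SP5 and NOTUM, lower, did not overlap between genotypes, 3 of 9 beside 28.3%. The intervals reached at most 0.419, a 1.34-fold change.

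Same-numbered arrays of a line deviated together from their group means, and a fit with the replicate number as a block gave small calls. AXIN2 was higher in mutant-only HCT116 cells (log2 0.24, limma adjusted p = 0.0236), 1 of 9 members beside 9.84% of all genes. On each numbered pair its mutant-only array was the higher. In DLD1 LEF1 was higher (log2 0.24, adjusted p = 0.0187) and NKD1 lower (log2 -0.20, adjusted p = 0.0234) in mutant-only cells, 2 of 9 beside 13.5% of all genes. In the fit without the block, leaving out single arrays moved AXIN2 in HCT116 between 0.14 (without mutant-only array 3) and 0.38 (without mutant-only array 2), and NKD1 in DLD1 between -0.28 (without mutant-only array 3) and -0.09 (without wild-type-only array 3). These shares stand near or somewhat above the background of the same fit, and the folds were 1.18, 1.18 and 1.15.

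**Figure D3:**
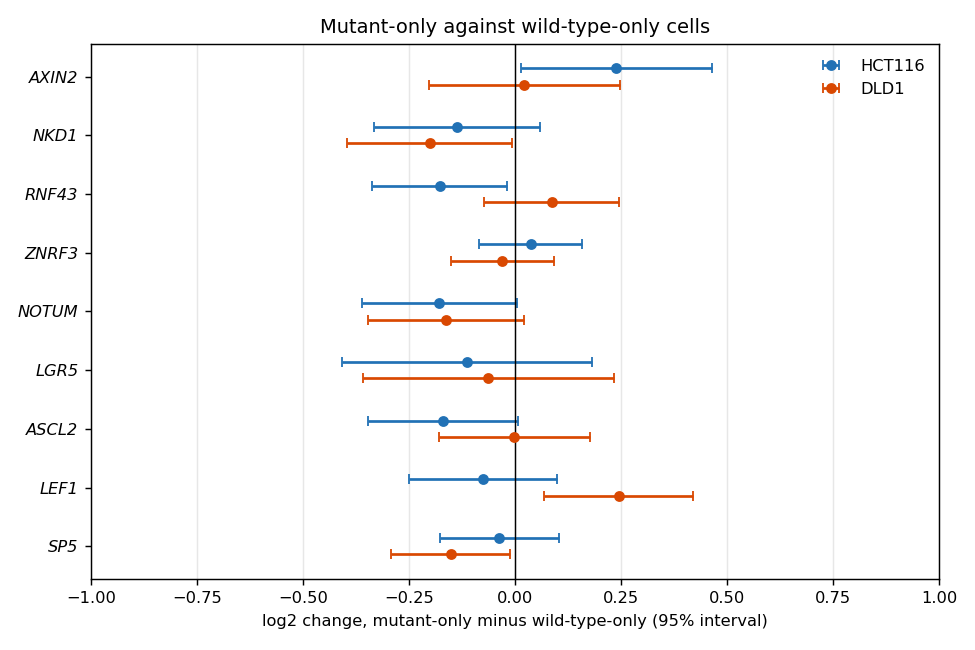
Log2 change, mutant-only minus wild-type-only, of the 9 measured members in HCT116 and DLD1, with bars for the 95% interval of the fit. The points lie between -0.20 and 0.24, and AXIN2 in HCT116 (0.24) and LEF1 in DLD1 (0.24) are the highest.

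The change with genotype was also compared between the lines. LEF1 differed by -0.32, HCT116 change minus DLD1 change (SE 0.115, limma adjusted p = 0.125), and RNF43 by -0.26 (SE 0.105, adjusted p = 0.174). For the other 7 members the adjusted p lay between 0.509 and 0.975. No member was called, beside 7.11% of all genes, and LEF1 and RNF43 were the 2 of 9 with an unadjusted p under 0.05, beside 19.2%. With the replicate block LEF1 was called (log2 -0.32, adjusted p = 0.0287), 1 of 9 beside 11.3% of all genes. The 95% intervals reached at most 0.567, a 1.48-fold difference between the lines' changes.

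The rest of the pathway was described with 7 wider lists of 111 genes, 107 of them measured. EPHB2, TDGF1, BMI1 and MEX3A are not analysed here. Between the lines 62 of the 107 genes were called in wild-type-only cells, 57.9% beside 48.8% of all genes, and 67 in mutant-only cells, 62.6% beside 50.6%. Among 18 measured further WNT targets known in colon, 3 were higher and 10 lower in wild-type-only HCT116 than in wild-type-only DLD1 cells, with a median of -0.392, and 4 were higher and 11 lower in mutant-only cells, with a median of -0.417. The shares called were 72.2% and 83.3%, beside the 48.8% and 50.6% of all genes that also stand as background for the lists below. TNFRSF19, a TNF receptor family member expressed in stem cells, was lower in wild-type-only HCT116 cells, with a log2 difference of -1.61 (SE 0.136, limma adjusted p = 2.32e-07). SLC12A2, an ion cotransporter, had a difference of -1.59 (adjusted p = 8.47e-11), and BMP4, a secreted differentiation signal, one of -1.19 in mutant-only cells (adjusted p = 3.04e-06). CD44, an adhesion receptor, was instead higher in HCT116, by 2.60 in wild-type-only cells (adjusted p = 1.59e-12). MYC, a growth regulator picked out after its values were seen, was also higher in HCT116, by 0.81 (adjusted p = 5.95e-09). The list thus held called genes on both sides.

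Of the pathway's ligands, 6 of 19 were higher in wild-type-only HCT116 cells and none lower, and 7 were higher and 1 lower in mutant-only cells, shares of 31.6% and 42.1%, below those of all genes. WNT16 was the extreme, with 11.72, 11.77 and 11.87 in wild-type-only and 11.37, 11.31 and 11.44 in mutant-only HCT116 cells against 7.15 to 7.25 on the 6 DLD1 arrays. It was 4.59 higher in HCT116 on the log2 scale in wild-type-only cells (SE 0.0558, limma adjusted p = 7.24e-16). Among 21 receptors and R-spondins 6 were higher and 6 lower in wild-type-only HCT116 cells, and 8 and 6 in mutant-only cells, 57.1% and 66.7%. ROR2, a receptor for WNT5A, was 1.62 higher (adjusted p = 1.42e-11), and its relative ROR1 was lower, with a difference of -1.41 (adjusted p = 1.11e-08).

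Of 12 secreted and surface inhibitors 3 were higher and 2 lower in HCT116 in each genotype, 41.7%, below the share of all genes. DKK1, a secreted blocker of LRP receptors, read 11.29, 11.35 and 11.61 in wild-type-only HCT116 cells and 5.83, 5.64 and 5.94 in wild-type-only DLD1 cells. The gap was 5.61 (SE 0.0998, limma adjusted p = 2.74e-14), and it was 5.66 in mutant-only cells. Detection was not assessed, so the size of this gap rests on DLD1 signals at the low end of the scale. DKK1 was thus higher in HCT116, the opposite direction from LGR5 and LEF1.

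Of 13 genes of the destruction complex and beta-catenin 2 were higher and 8 lower in wild-type-only HCT116 cells, and 3 and 3 in mutant-only cells, 76.9% and 46.2%. AXIN1, the scaffold related to AXIN2, was lower in HCT116, with a log2 difference of -0.55 (adjusted p = 4.13e-06) in wild-type-only cells by limma. The genes mutated in these lines, named here for that reason, had small differences: CTNNB1 -0.13 (adjusted p = 0.0572) and APC -0.28 (adjusted p = 0.000943). Among 13 nuclear partners 7 were higher and 4 lower in wild-type-only HCT116 cells, and 8 and 5 in mutant-only cells, 84.6% and 100%. The corepressor TLE4 was far lower in HCT116, with signals from 5.93 to 6.30 against 9.84 to 10.13 in DLD1 and a log2 difference of -4.02 (adjusted p = 3.5e-13) in wild-type-only cells, with its HCT116 signals likewise at the low end. TCF7L2, the main TCF of the gut, was higher in HCT116 by 1.06 in mutant-only cells (adjusted p = 8.26e-10), and TCF7L1 by 1.35 (adjusted p = 2.34e-08), the opposite direction from their relative LEF1.

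Of 11 measured further intestinal stem cell genes 3 were higher and 2 lower in wild-type-only HCT116 cells, and 4 and 2 in mutant-only cells, 45.5% and 54.5%, near the shares of all genes. PROM1, the surface protein CD133, was 2.23 higher in wild-type-only HCT116 cells on the log2 scale (SE 0.0971, limma adjusted p = 2.17e-10), and the RNA-binding protein gene MSI1 was 1.10 higher (adjusted p = 1.28e-07). MYB, a transcription factor of progenitor cells, was lower, with a difference of -1.30 (adjusted p = 3.11e-07).

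**Figure D4:**
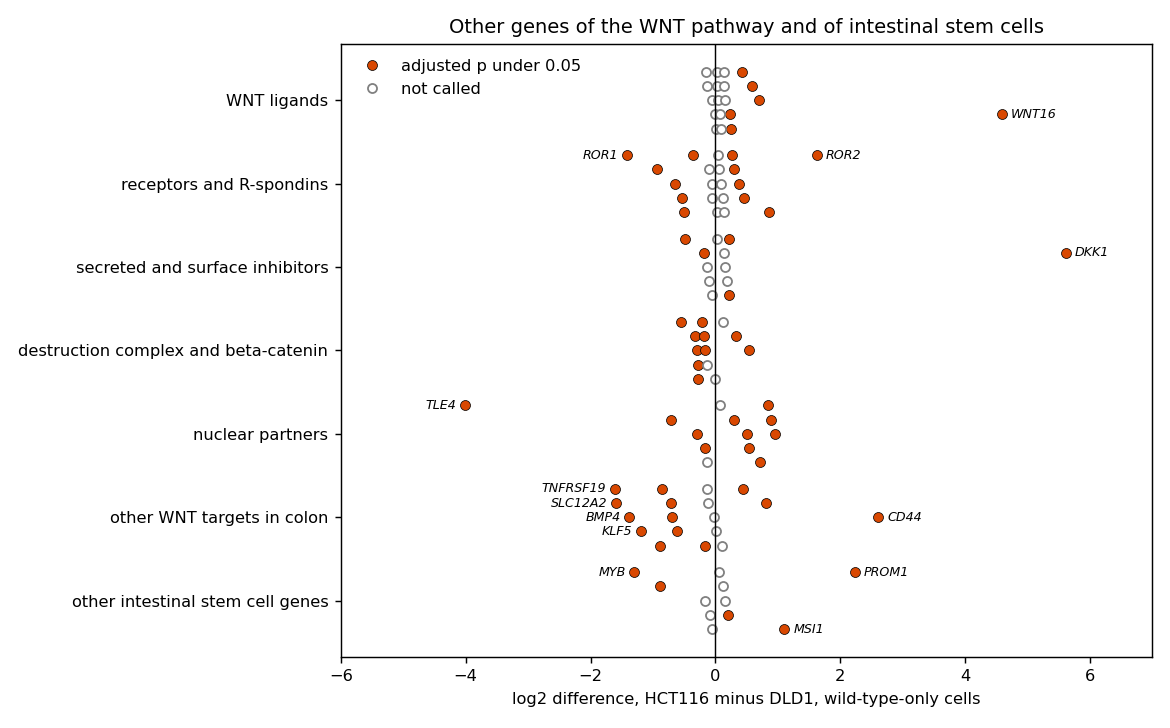
Log2 difference between lines, HCT116 minus DLD1, in wild-type-only cells (horizontal) for the genes of the 7 wider lists (vertical), 1 point per gene with no order within a list. Filled points passed the test at an adjusted p under 0.05. DKK1 (5.61) and WNT16 (4.59) lie far to the HCT116 side and TLE4 (-4.02) far to the DLD1 side.

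With genotype, 7 of the 107 genes of these lists were called higher and 3 lower in mutant-only HCT116 cells, 9.35% beside 6.16% of all genes, and 5 higher and 7 lower in mutant-only DLD1 cells, 11.2% beside 8.77%. The counts include small changes that were lost when single arrays were left out: ROR1, LRP6, PYGO1 and BCL9 in HCT116, with adjusted p up to 0.183, and FZD6, TNFRSF19 and MYB in DLD1, with adjusted p up to 0.146. LRIG1, a brake on growth factor receptors that marks intestinal stem cells, read 6.73, 6.92 and 7.01 in wild-type-only and 8.16, 8.13 and 8.13 in mutant-only HCT116 cells. It rose by 1.25 on the log2 scale (SE 0.0796, limma adjusted p = 5.17e-07), and in DLD1 its change was -0.0065 (adjusted p = 0.975). SOX4, a transcription factor and WNT target, rose by 0.81 in HCT116 (adjusted p = 8.26e-07) and fell by 0.22 in DLD1 (adjusted p = 0.0239). TNKS, the tankyrase that marks AXIN proteins for destruction, rose in HCT116 by 0.48 (adjusted p = 0.000224). SLC12A2 fell there by 0.53 (adjusted p = 0.000196) and WNT16 by 0.41 (adjusted p = 0.000573). EPHB3, a receptor that positions crypt cells, changed by -0.30 (adjusted p = 0.0172). This call was lost with only the HCT116 groups fitted. It was also lost without mutant-only array 1, mutant-only array 2 or wild-type-only array 3 of HCT116 (adjusted p up to 0.0829).

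In DLD1 the clearest genotype change in these lists was in CD44, with 10.17, 10.06 and 10.31 in wild-type-only and 9.39, 9.18 and 9.31 in mutant-only cells. It fell by 0.89 on the log2 scale (SE 0.0698, limma adjusted p = 3.57e-06). PROM1 rose by 0.54 (adjusted p = 0.00365), RGMB, a BMP co-receptor, by 0.32 (adjusted p = 0.00151) and AMER1, an inhibitor that recruits APC to the membrane, by 0.28 (adjusted p = 0.00952). LGR6, the relative of LGR5 that also binds R-spondins, read 7.73, 7.87 and 7.95 in wild-type-only and 7.47, 7.52 and 7.47 in mutant-only cells and fell by 0.37 (adjusted p = 0.00404). TCF7L1 fell by 0.42 (adjusted p = 0.0117), a call lost without mutant-only replicate 3 (adjusted p = 0.0554). TCF7L2 changed by -0.22 (adjusted p = 0.0176), and this call was lost with median centring and without mutant-only array 1, wild-type-only array 1 or wild-type-only array 2 (adjusted p up to 0.0872).

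For the 3 members with the widest range of group means, the genes with the most similar pattern over the 12 arrays were sought among 1954 genes whose group means span at least 1 log2 unit. For LGR5, with a span of 5.72, these were AMIGO2 (Pearson r = 0.9994), AFAP1-AS1 (0.9986) and OLR1 (0.9985). For LEF1, with a span of 4.79, they were the histone gene H1-5 (0.9990), RASGRF2 (0.9989) and MANSC1 (0.9986). For AXIN2, with a span of 3.01, they were MOB3B (0.9984), ERAP2 (0.9972) and LMO7 (0.9966). These values describe the split between the lines, which all 12 arrays share, and between 796 and 814 of the 1954 genes had r above 0.95 with each of these members.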

How the data were processed

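Per the file headers the arrays are HuGene-1_0-st-v1, annotated on hg19. The authors deposited log2 values for 28869 transcript clusters. How they were normalized is not given in the sources used. Symbols came from the platform annotation, updated through NCBI's gene table. Of the clusters, 19310 had 1 symbol, 1752 had several and 7807 none, and only the first were used. For 685 genes with more than 1 cluster the highest-mean cluster was kept. The authors' tables of selected genes hold no member and were not used. The targeted gene's own transcript is not reported.

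Group means were fitted over 12 arrays with limma 3.58.1 in R 4.3.3 (8 residual and 5.17 prior degrees of freedom), tested on simulated data first. The simulated arrays varied independently, so that test did not cover deviations shared by same-numbered arrays. Every planted change was larger than any genotype change of a member, so recovery of changes that small was not tested. Two-sided p-values were adjusted by Benjamini-Hochberg over 18377 genes, with a threshold of 0.05. An exact test of 3 arrays against 3 cannot go below p = 0.1. The small number of arrays limits precision, and detection above background was not assessed.

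The members, lists and tests were chosen with earlier results of these data known. Named were all members, up to 3 called genes per wider list and contrast with the largest change, and 3 genes most like each of the 3 widest-ranging members. MYC, CTNNB1 and APC were added after values were seen, as was the text's choice among the genes this rule gives.

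Pairing was judged from deviations from group means. Same-numbered arrays of a line correlated by 0.129 to 0.462 in all 6 pairs, above 0.1, and other pairs of a line by -0.321 to 0.17, so the block is given for genotype. Across lines, the 12 pairs with the same number gave 0.0657 to 0.471, not all above 0.1, and pairs of other numbers gave -0.413 to 0.191. Deviations by replicate number were thus partly shared between the lines. Alternatives were other normalizations, array weights, a fit of the compared groups alone, the block and leaving out each array. Another left out genes under percentile 40 of mean signal over the 12 arrays, and all 9 members passed. LGR5, LEF1 and ASCL2 passed through their DLD1 signals, since their HCT116 means stood at percentiles 10.2 to 39.4. That setting therefore does not check low HCT116 signals.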

Additional observations from a re-analysis of the deposited data

Results flagged for a closer look

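No member of the list met a rule for a closer look, and groups of 3 arrays were not tested for single deviating arrays. Of the wider lists 10 of 107 measured genes (9.35%) and of the cell type markers 4 of 31 (12.9%) differed between the lines in their genotype change by the limma test of that difference, beside 7.11% of all genes. Differences are given as HCT116 change minus DLD1 change on the log2 scale. The largest was KRT20, a keratin of differentiated colon cells, at 4.37 (adjusted p = 2.2e-11), with a change of -4.14 in DLD1. Among stem cell genes and WNT targets LRIG1 differed by 1.25 (adjusted p = 1.59e-05), CD44 by 1.05 (2.14e-05), SOX4 by 1.02 (3.78e-06), SLC12A2 by -0.54 (0.00201) and RGMB by -0.48 (0.00115). Within the pathway TCF7L1 differed by 0.63 (0.00899), TNKS by 0.47 (0.00335), WNT16 by -0.43 (0.00414), ROR2 by 0.34 (0.0156) and GSK3B by 0.25 (0.049). Of the epithelial and differentiation markers CA2 differed by -1.27 (1.27e-05), CDH17 by -0.60 (0.00252) and KRT8 by 0.28 (0.035). The calls of GSK3B and KRT8 were lost under 11 and 10 of 20 other settings, most of them leaving out a single array of either line, with adjusted p up to 0.106 and 0.0883.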

How the results depend on the processing

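Between genotypes the count of called members was 0 in both lines and rose under some settings. In HCT116 it was 1 with the replicate block (AXIN2) and 0 to 1 when an array was left out. The calls were NOTUM without wild-type-only replicate 2 (log2 -0.28, adjusted p = 0.0497), AXIN2 without mutant-only replicate 2 (0.38, 0.0248) and ASCL2 without mutant-only replicate 3 (-0.28, 0.0292). Other arrays left out moved these values down, to 0.14 for AXIN2 (without mutant-only replicate 3, adjusted p = 0.549), -0.09 for ASCL2 (without mutant-only replicate 1, 0.68) and -0.095 for NOTUM (without wild-type-only replicate 3, 0.615). In DLD1 it was 1 with median centring (LEF1), 3 with array weights (LEF1, SP5 and NOTUM), 1 with only the compared groups fitted (LEF1) and 2 with the replicate block, and 0 whichever array was left out. The adjusted p of LEF1 in DLD1 ran from 0.00432 to 0.242. For the difference between the lines' changes it was 2 with array weights (RNF43 and LEF1), 1 with the replicate block and 0 without any single array. Counts over all genes ran from 665 to 1808 against 1132 in HCT116, from 939 to 4705 against 1612 in DLD1 and from 955 to 2189 against 1307 for the difference.

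Between lines 8 to 9 members were called in wild-type-only cells, since SP5 passed under 7 of 21 settings (lowest adjusted p 0.0101 with median centring; called also without HCT116 replicate 1 or DLD1 replicate 2, at 0.0288 and 0.0187), and 7 to 8 in mutant-only cells, where NKD1 was lost without any one of 4 arrays. LGR5, LEF1, AXIN2, ASCL2, RNF43, ZNRF3 and NOTUM were called under every setting run. No called value changed sign among 936 recomputed member values. The replicate block changed no member's call besides AXIN2, LEF1, NKD1 and SP5. Signal over background, which was not assessed, limits the values of LGR5, LEF1, TLE4 and CDH17 in HCT116 and of DKK1 in DLD1.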
